A study of Homo sapiens with 6 samples.

Results

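Metallocarboxypeptidases are zinc enzymes that clip 1 residue at a time from the C-terminus of a peptide or protein. A group of 9 of their genes was examined in the endometrial cancer (EC) line AN3CA with and without *PAX2* knockdown (KD): *CPA4*, *CPA1*, *CPA3*, *CPA5*, *CPA6*, *CPD*, *CPM*, *CPXM1* and *CPZ*. The set was chosen by family name around *CPA4*, and *CPA4* itself was selected on its difference between these same libraries, so its values are given as a description with no test. Of the 9 genes, 6 were among the 17471 genes listed, and *CPA3*, *CPA6* and *CPZ* were not analysed here. *CPE*, which belongs to the same family, was left out of the set.

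RNA-Seq covered 6 libraries of AN3CA, an established human line derived from the uterus and labelled as epithelial. In 3 libraries (shEV, genotype label WT) the cells carried the empty hairpin vector, and in 3 (shPAX2, genotype label *PAX2* KD) they carried a hairpin against *PAX2*, a paired-box transcription factor of the developing urogenital tract. Both groups were transduced with lentivirus and selected with puromycin. The study's methods name a single hairpin vector for KD, so an effect of that hairpin other than on *PAX2* cannot be told apart from KD, while the control of this line, empty in labels and methods, is called scrambled at another place in its text. Nothing states that the 3 replicates of a group were separate transductions or cultures, so the tests measure the spread between these libraries, which may be technical. Bulk RNA cannot separate fewer cells with a transcript from less transcript per cell.

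*PAX2* itself measured 4.03, 3.66 and 2.74 TPM (reads scaled by gene length and then to the same total in each library) in shEV and 0.916, 0.723 and 1.17 TPM in shPAX2, with no overlap. The recovered depth was 10730909 to 18221859 reads in shEV and 19422615 to 29405787 reads in shPAX2, so every KD library was deeper and depth cannot be told apart from group. The epithelial label was checked against 10 markers: 9 were listed and *KRT18* was the 1 that passed the filter on low values, with a summed level of 11.2 to 13.4 TPM in shEV and 12.4 to 18.2 TPM in shPAX2. *EPCAM* reached at most 0.387 TPM and *CDH1* at most 0.0851 TPM in any library, while *VIM*, an intermediate filament of mesenchymal cells, averaged 4212 TPM in shEV and 3808 TPM in shPAX2. Defining epithelial markers were therefore close to absent from the RNA of both groups. *VIM* does not stand for all mesenchymal markers: of 10 looked at, 6 passed the filter. *CDH2*, *FN1*, *TWIST1* and *ZEB2* did not, and *FN1*, the highest of them, reached at most 0.827 TPM in any library.

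The A-type enzymes of the family (among them *CPA1*, *CPA3*, *CPA4*, *CPA5* and *CPA6*) favour hydrophobic C-terminal residues. *CPA1* is a digestive enzyme of the pancreas, *CPA3* is stored in mast cell granules, and *CPA4* was first described as a transcript induced by histone deacetylase inhibitors in prostate cancer cells. The B-type and regulatory enzymes favour basic residues. *CPD* trims peptides in the trans-Golgi network after furin-like cleavage, *CPM* is held at the cell surface by a lipid anchor and trims kinins and growth factors, and *CPXM1* lacks detectable peptidase activity. Secreted A-type enzymes are made as inactive precursors, so a transcript level is not a level of active enzyme.

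*CPA4* lies on the plus strand of chromosome 7 at chr7:129932974-129964020 (GRCh37), with 11 exons. The region before its start is shown because it is the stretch next to the gene with the greatest difference of the set. These 250 bases end just before the RefSeq start of *CPA4* (RefSeq table on GRCh38.p14), match GRCh37 exactly at chr7:129932751-129933000 on the plus strand, and are written 5′ to 3′ with the matched motif letters in capitals:

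CPA4 upstream region: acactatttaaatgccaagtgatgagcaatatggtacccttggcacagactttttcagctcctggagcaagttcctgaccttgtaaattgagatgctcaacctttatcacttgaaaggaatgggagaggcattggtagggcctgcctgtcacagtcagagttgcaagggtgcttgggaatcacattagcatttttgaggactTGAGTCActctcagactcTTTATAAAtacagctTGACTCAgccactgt

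The capitals mark TGAGTCA and TGACTCA, which are the AP-1 motif read on either strand, and an overlapping pair of TATA-box matches (TATAAA and its reverse complement TTTATA). The AP-1 matches began 48 and 15 bases before the RefSeq start, and the TATA matches began 30 and 28 bases before it. At least 1 AP-1 match was present in 4.20% of 35116 RefSeq windows of the same length, and at least 2 in 0.182%, while 10.7% held a TATA match. GTCACGC, a core of paired-box binding sites, was searched on both strands, was not found in this window and was present in 2.20% of windows. These motifs were picked after the sequence had been read, and a match is a string of letters and not a bound site. The GENCODE start of *CPA4* lies 27 bases before the RefSeq start. The nearer AP-1 match therefore lies within the first GENCODE exon, and the TATA matches run across the GENCODE start instead of lying before it. Of the 9 genes, 6 had an entry in the promoter table.

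*CPA4* was low in every control library, at 6.02, 4.58 and 5.03 TPM in shEV. It measured 98.0, 223 and 221 TPM in shPAX2. All 3 KD libraries were thus far above all 3 controls, with replicates 2 and 3 of shPAX2 close together and replicate 1 lower. The means were 5.21 ± 0.735 TPM (SD, n = 3) in shEV and 181 ± 71.7 TPM (SD, n = 3) in shPAX2, a ratio of 34.7 and a log2 fold change of 4.90 (SE 0.38) on the log2(TPM + 0.5) scale. Under 17 other ways of processing the values, this log2 fold change ran from 4.70 to 5.29, the highest being without shPAX2 replicate 1. Among these, the other filters, the fit without trend and the replicate block leave the fold change of any gene as it is. They could therefore not move this value.

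The reads behind *CPA4* numbered 91, 114 and 128 in shEV and 4226, 8467 and 6088 in shPAX2. Exact 95% Poisson intervals, which cover counting error only, ran from 3.78 to 7.39 TPM over the 3 shEV libraries. In shPAX2 they were 95.1 to 101 TPM for replicate 1, 218 to 228 TPM for replicate 2 and 216 to 227 TPM for replicate 3. Counting error was therefore much smaller than the gap between replicate 1 and the other two. Among the listed genes ordered by TPM, *CPA4* ranked between 10290 and 10753 in shEV. In shPAX2 it ranked 1549, 650 and 653.

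The spread of *CPA4* within the KD group was among the wider ones. Its log2 SD over the shPAX2 libraries was 0.68, against a median of 0.084 over 10528 genes with a mean of at least 5 TPM, and 43 of those genes had a larger value. Within shEV its log2 SD was 0.18. Of the 10528 genes, 15 were at least 1 log2 unit below both other KD libraries in shPAX2 replicate 1. The number was 16 in replicate 3 and 5 in replicate 2. This cut catches only large differences, so it cannot show whether replicate 1 stood apart by less across genes. What set *CPA4* lower in replicate 1 was not tested.

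**Figure D1:**
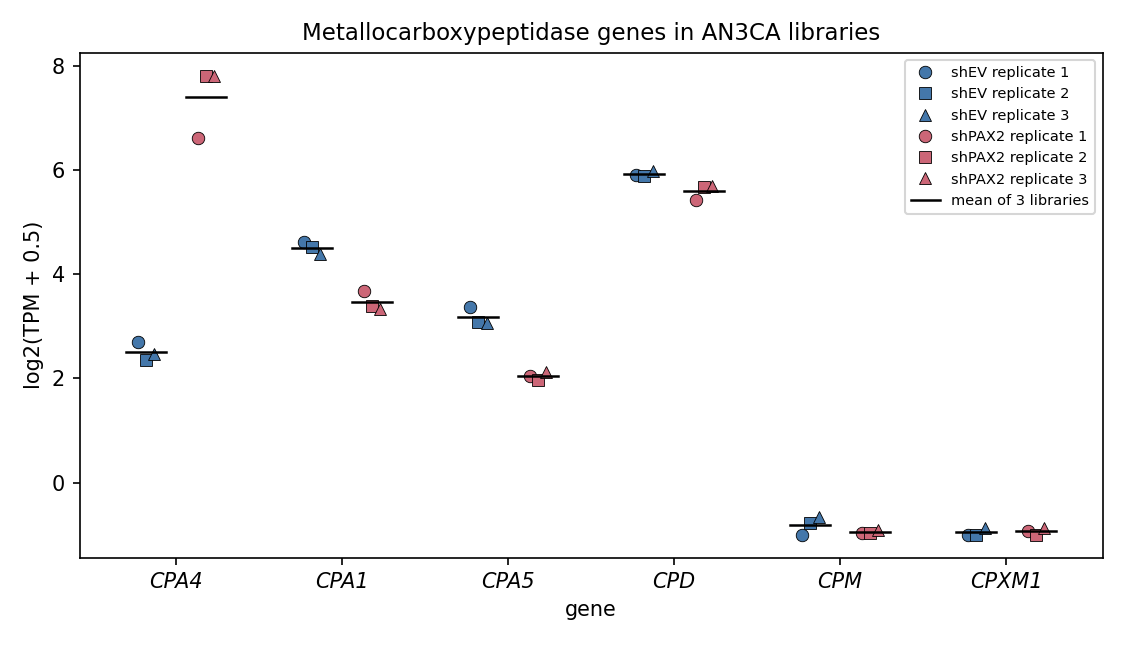
Levels of the 6 listed metallocarboxypeptidase genes in each AN3CA library, as log2(TPM + 0.5) on the vertical axis, with blue points for shEV, red points for shPAX2 and a line at the mean of 3 libraries. *CPA4* was the lowest of the 4 genes that passed the filter in shEV (5.21 TPM) and the highest in shPAX2 (181 TPM), while *CPA1*, *CPA5* and *CPD* lay lower in shPAX2 and *CPM* and *CPXM1* sat at the bottom of the axis in all libraries.

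The other A-type genes of the set did not share this direction. *CPA1* measured 24.1, 22.6 and 20.4 TPM in shEV and 12.2, 10.0 and 9.61 TPM in shPAX2, so the groups did not overlap. The means were 22.4 ± 1.88 TPM (SD, n = 3) and 10.6 ± 1.40 TPM (SD, n = 3), which put KD cells at 47.5% of the control level. On the log2 scale *CPA1* fell by 1.04 (SE 0.10), and limma's moderated test over 13163 genes gave an adjusted p of 8.78e-05. The threshold used throughout was an adjusted p under 0.05 together with a log2 change of 1 or more in size, and *CPA1* sat at its edge: its log2 fold change was -0.94 after median-of-ratios scaling, -0.89 after quantile normalization, -0.99 without shEV replicate 1 and -0.98 without shPAX2 replicate 3. Its limma adjusted p stayed between 2.92e-05 and 0.00119 over the 17 alternatives.

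*CPA1* lies at chr7:130020180-130027955 on the plus strand, with 10 exons. Its values rest on 185 to 285 reads in a control library and 134 to 267 reads in a KD library. The pancreatic setting in which this enzyme is best known was not visible in the RNA. Of 12 acinar markers 3 were listed, none passed the filter, and their summed level was 0 in every shEV library and 0.0980 to 0.293 TPM in shPAX2.

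*CPA5*, the next gene after *CPA4* on the chromosome, measured 9.77, 8.0 and 7.83 TPM in shEV and 3.65, 3.43 and 3.85 TPM in shPAX2. The 3 KD libraries were all lower than the 3 controls and lay close together. The means were 8.54 ± 1.07 TPM (SD, n = 3) and 3.64 ± 0.210 TPM (SD, n = 3), so that 42.6% of the control level was left. *CPA5* thus fell by 1.12 log2 units (SE 0.11; limma adjusted p of 8.85e-05). It passed the threshold under 16 of 17 alternatives and was -0.89 after quantile normalization. The gene lies at chr7:129984656-130008571 on the plus strand, with 13 exons, and 78 to 147 reads per library stood behind its values.

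*CPD* was the most abundant gene of the set in control cells. It measured 59.4, 58.2 and 62.5 TPM in shEV and 42.4, 50.4 and 51.4 TPM in shPAX2, again without overlap and with shPAX2 replicate 1 the lowest of all. The means were 60.0 ± 2.18 TPM (SD, n = 3) and 48.0 ± 4.93 TPM (SD, n = 3). *CPD* fell by 0.32 log2 units (SE 0.08; limma adjusted p of 0.0108) and did not reach the fold threshold under any of the 17 alternatives. Its limma adjusted p ranged from 0.00194 to 0.0498 among them. *CPD* lies at chr17:28705945-28797007 on the plus strand, with 21 exons, and was read 2937 to 6253 times per library.

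Both remaining genes were close to the limit of detection and were not tested. *CPM* had 0, 5 and 8 reads in shEV and 1, 1 and 2 reads in shPAX2, which is at most 0.132 TPM. Summed over libraries and scaled by depth, the ratio of shEV to shPAX2 for *CPM* was 5.39, with a 95% interval of 1.67 to 22.7 that covers counting error only. The groups overlapped, with 0 reads in shEV replicate 1. The interval pools the libraries of a group, so it is no test of a difference between groups. *CPM* lies at chr12:69235977-69365350 on the minus strand and overlaps *MDM2*, which is listed too. The strand setting of the counting is not given in the sources used here, so reads in the overlap cannot be told apart. *CPXM1* (chr20:2774720-2781273, minus strand) had 0, 0 and 1 reads in shEV and 1, 0 and 1 reads in shPAX2, and any difference was not detectable at this depth.

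Set beside all genes, the counts were as follows. Past the threshold were 4.54% of the 13163 tested genes in either direction, and 3.11% were lower in shPAX2. An adjusted p under 0.05 alone was reached by 42.8% of tested genes, 1612 higher and 4017 lower in shPAX2, and in 54.9% the 2 groups were separate. Of the 9 members 4 passed the filter (3 or more libraries with a TPM of 0.5 or higher), each with all 6 libraries above it. Leaving out *CPA4*, which was chosen from this contrast, 2 of the remaining 3 genes, which were tested, passed the threshold (both lower), and all 3 reached the adjusted p and did not overlap, which with 42.8% and 54.9% of all genes doing so says little by itself. Over all tested genes the median log2 difference stood at -0.10. It was 0.01 with median-of-ratios scaling and 0.00 with quantile normalization. Single genes moved by other amounts. The groups also differed along chromosome 6, where the median was 0.39 over 638 tested genes, against -0.11 on the other chromosomes. Its source was not tested. For the members too, a difference between the cells beyond the hairpin cannot be told apart from KD.

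Because TPM is scaled by length, levels can be ordered between genes. In shEV the order was *CPD*, *CPA1*, *CPA5*, *CPA4*, then *CPM* and *CPXM1*. In shPAX2 it was *CPA4*, *CPD*, *CPA1*, *CPA5*, then *CPXM1* and *CPM*. Neighbours in either order did not overlap between libraries, except *CPM* and *CPXM1*, which did. The summed TPM of the members was 99.3, 93.5 and 95.9 in shEV and 156, 287 and 286 in shPAX2. *CPA4* made up 4.90% to 6.06% of that sum in shEV and 62.7% to 77.7% in shPAX2. Without *CPA4*, the sum went the other way, from 88.9 to 93.3 TPM in shEV down to 58.3 to 64.9 TPM in shPAX2.

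The 3 A-type members that passed the filter lie head to tail on the plus strand of chromosome 7, in the order *CPA4*, *CPA5*, *CPA1*. The end of *CPA4* and the start of *CPA5* are 20.6 kb apart, and 11.6 kb separate *CPA5* from *CPA1*. Within this stretch *CPA4* was far higher in KD cells, while both genes that follow it were lower.

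Ratios within a library do not depend on how libraries are scaled. *CPA4* over *CPD* was 0.101, 0.0786 and 0.0806 in shEV and 2.31, 4.43 and 4.31 in shPAX2. *CPA5* over *CPD* was 0.164, 0.137 and 0.125 in shEV and 0.0861, 0.0680 and 0.0749 in shPAX2. *CPA1* over *CPD* was 0.406, 0.388 and 0.326 in shEV and 0.288, 0.199 and 0.187 in shPAX2. In each of these ratios the groups were separate, although *CPD* was itself lower in shPAX2, so the opposite directions of *CPA4* and of *CPA5* and *CPA1* relative to *CPD* did not rest on library scaling. *CPA1* over *CPA5* was 2.47, 2.82 and 2.60 in shEV and 3.35, 2.92 and 2.50 in shPAX2, where the groups overlapped.

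**Figure D2:**
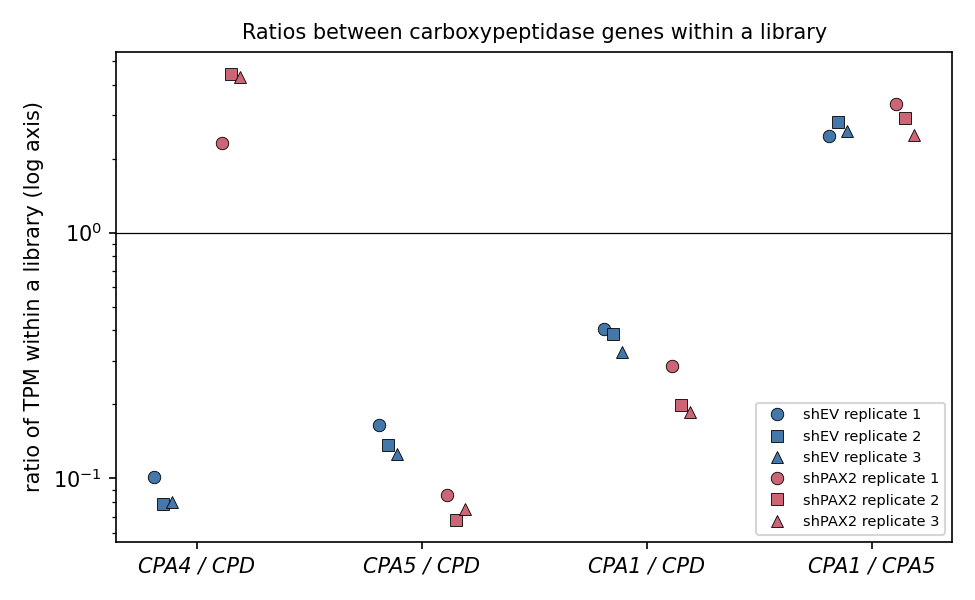
Ratios of TPM between the carboxypeptidase genes of the set that passed the filter within each library, on a log axis, with blue points for shEV and red points for shPAX2. The ratio of *CPA4* to *CPD* was at most 0.101 in shEV and at least 2.31 in shPAX2, the ratios of *CPA5* and *CPA1* to *CPD* lay lower in shPAX2, and the ratio of *CPA1* to *CPA5* overlapped between groups.

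Genes further out in the 7q32 band showed no comparable change. Of the neighbours reported here that are not members, 13 were tested and 0 passed the threshold in limma. Of these, 5 reached an adjusted p under 0.05, with 1 higher and 4 lower, where 42.8% of all tested genes did so. The median log2 fold change of the 13 was -0.08 against -0.10 for all genes. With *CPA5* and *CPA1* counted, the median of the band ran from -0.16 to -0.01 over 17 alternatives. *CEP41*, a centrosomal gene on the minus strand whose 3′ end lies 5.7 kb beyond the end of *CPA1*, differed by -0.11 on that scale (limma adjusted p of 0.265). *KLHDC10*, on the other side of *CPA4*, averaged 123 TPM in shEV and 126 TPM in shPAX2 (limma adjusted p of 0.627). *MEST*, an imprinted gene and by far the most abundant of the band, averaged 13573 ± 384 TPM (SD, n = 3) in shEV and 15357 ± 1041 TPM (SD, n = 3) in shPAX2, a log2 difference of 0.18 (limma adjusted p of 0.0572). The microRNA gene *MIR335* within it averaged 413 and 326 TPM (limma adjusted p of 0.146). *MIR335* and *MEST* lie on the same strand, so reads of *MIR335* cannot be told apart from reads of the longer transcript.

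Of the 7q32 neighbours that did reach the adjusted p, the antisense transcript *MESTIT1* fell by 0.73 log2 units (limma adjusted p of 0.00373), and the coatomer subunit gene *COPG2* fell by 0.62 (limma adjusted p of 0.000980). *MESTIT1* lies almost wholly within *MEST*, while *COPG2* overlaps it at 1 end, and reads in the overlaps cannot be told apart without the strand setting. *UBE2H*, which encodes a ubiquitin-conjugating enzyme, fell by 0.43 (limma adjusted p of 0.000966), *TSGA13* fell by 0.60 (limma adjusted p of 0.0256), and *PODXL*, which encodes a cell surface sialomucin, rose by 0.39 (limma adjusted p of 0.00146).

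**Figure D3:**
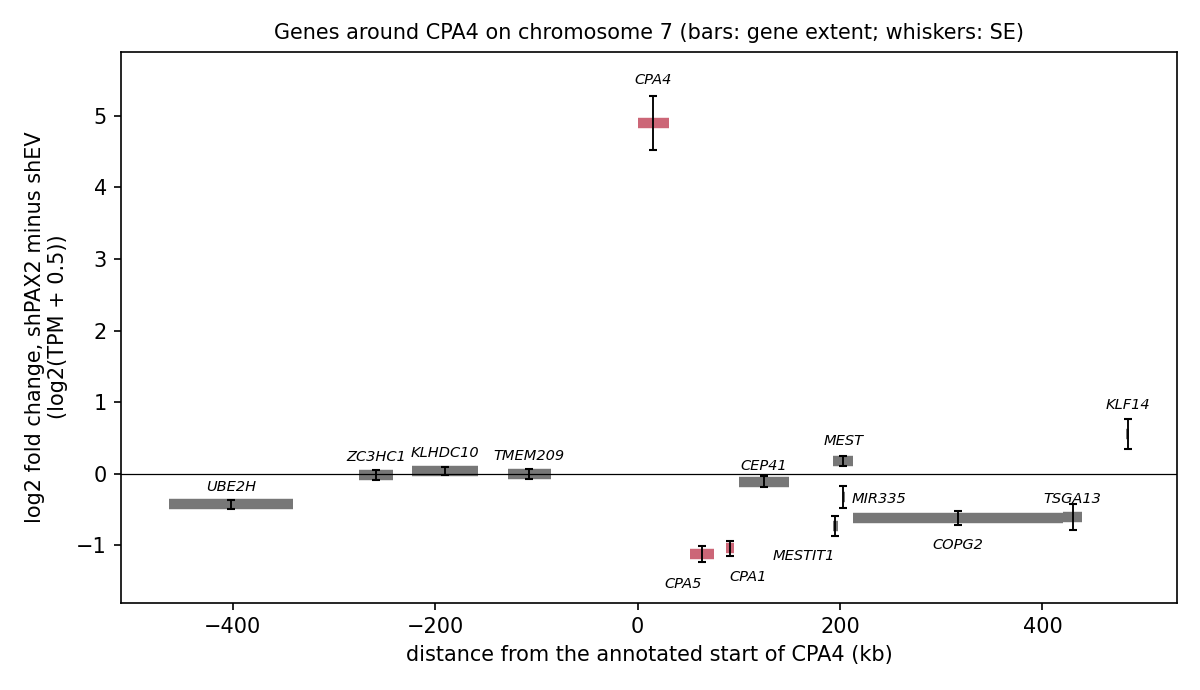
Log2 fold change of *CPA4* and of tested genes of the 7q32 list within 500 kb of the start of *CPA4* on chromosome 7, against distance from that start in kb, with the 3 members in red, other genes in grey, bars spanning each gene and whiskers giving the SE. *CPA4* stands at 4.90 while the other genes drawn lie between -1.12 (*CPA5*) and 0.56 (*KLF14*).

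Other carboxypeptidases and enzymes acting on the same ends or the same peptides were set beside the members. The counts in these lists stand against 4.54% of all tested genes past the threshold and 42.8% at an adjusted p under 0.05. Of the latter, 1612 were higher and 4017 lower in shPAX2. Of 8 further genes of the zinc carboxypeptidase family looked at, 5 were listed and 1 was tested, *CPE*. *CPE*, which trims basic residues from prohormones in secretory granules, measured 37.7, 33.2 and 35.1 TPM in shEV and 2.29, 1.92 and 1.73 TPM in shPAX2. *CPE* fell by 3.86 log2 units (SE 0.10; limma adjusted p of 5.65e-08). *CPO*, *AEBP1* and *CPXM2* were listed at no more than 0.308 TPM in any library.

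The cytosolic carboxypeptidases shorten glutamate chains on tubulin. Of 6 such genes 3 were tested, 0 passed the threshold in limma and 1 reached an adjusted p under 0.05, *AGBL5*, which fell by 0.21 (limma adjusted p of 0.0303). *AGBL3* averaged 1.88 TPM in shEV and 2.38 TPM in shPAX2 (limma adjusted p of 0.0910). *AGTPBP1*, the best known of them, measured 24.9 ± 2.46 TPM (SD, n = 3) in shEV and 21.3 ± 0.864 TPM (SD, n = 3) in shPAX2 (limma adjusted p of 0.0528). Among 19 enzymes that add or remove residues at tubulin tails, 14 were tested, 1 was higher past the threshold, and 1 was higher and 7 were lower at an adjusted p under 0.05. The higher gene was *TTLL6*, a polyglutamylase, at 1.94 ± 0.470 TPM (SD, n = 3) in shEV and 8.80 ± 1.61 TPM (SD, n = 3) in shPAX2, a rise of 1.93 log2 units (SE 0.17; limma adjusted p of 4.76e-05). *VASH1*, one of the vasohibins that remove the terminal tyrosine of tubulin, fell by 0.84 (limma adjusted p of 0.00166), and *VASH2* fell by 0.42 (limma adjusted p of 0.00201). *TTL*, which puts the tyrosine back, fell by 0.21 (limma adjusted p of 0.0139), as did *TPGS2*, a subunit of a polyglutamylase complex, by 0.23 (limma adjusted p of 0.00800). The abundant *TTLL12* averaged 57.1 TPM in shEV and 53.6 TPM in shPAX2 (limma adjusted p of 0.325). The median log2 fold change over the 14 was -0.24, against -0.10 for all tested genes, and it stayed between -0.29 and -0.16 over 17 alternatives.

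Carboxypeptidases of other classes, which are mostly lysosomal serine enzymes and metallodipeptidases, showed no call. Of 15 such genes 10 were listed, 4 were tested, and 0 reached an adjusted p under 0.05 in limma. The lysosomal *CTSA* averaged 76.3 TPM in shEV and 75.3 TPM in shPAX2, *PRCP* 110 and 107 TPM, *SCPEP1* 55.6 and 53.8 TPM, and *CNDP2* 29.8 and 29.4 TPM. The median of these 4 was -0.02, and its sign changed to 0.09 with median-of-ratios scaling. Neither of the 2 carboxypeptidase inhibitor genes looked for, *LXN* and *RARRES1*, was analysed here.

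Prohormone convertases cut after basic residues, which *CPD* or *CPE* then removes from the new C-terminus, and amidation enzymes finish the peptide. Of 14 genes in this group 9 were tested, with 1 higher past the threshold, and 3 higher and 3 lower at an adjusted p under 0.05. *PCSK5*, a convertase of secreted growth factors, measured 3.61 ± 0.455 TPM (SD, n = 3) in shEV and 15.4 ± 0.550 TPM (SD, n = 3) in shPAX2, a rise of 1.96 log2 units (SE 0.10; limma adjusted p of 1.87e-06). The Golgi convertase *MBTPS1* averaged 72.8 and 81.2 TPM (limma adjusted p of 0.0548). *FURIN* rose by 0.23 (limma adjusted p of 0.0195) and *QPCTL*, a Golgi glutaminyl cyclase, by 0.27 (limma adjusted p of 0.0223). *PCSK1N*, an inhibitor of a convertase of granules, fell by 0.95 (limma adjusted p of 0.000692), *PCSK4* fell by 0.77 (limma adjusted p of 0.00299) and *PAM*, the amidating enzyme, fell by 0.77 (limma adjusted p of 0.0173). The median over the 9 tested genes was 0.03 and ran from -0.21 to 0.17 over the alternatives, so the group had no single direction.

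Kinins are a known substrate of *CPM*. Of 7 genes of the kinin axis 3 were tested and 0 passed the threshold in limma. *BDKRB2*, the constitutive kinin receptor, measured 50.5, 32.9 and 37.4 TPM in shEV and 24.0, 19.2 and 19.1 TPM in shPAX2, and fell by 0.92 (limma adjusted p of 0.00727). *ECE1*, an endothelin-converting enzyme that also cuts kinins, rose by 0.39 (limma adjusted p of 0.00139). *BDKRB1* averaged 1.58 TPM in shEV and 1.37 TPM in shPAX2 (limma adjusted p of 0.595). The median of the 3 ran from -0.45 to 0.13 over the alternatives.

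Histone deacetylases and sirtuins were included because *CPA4* was first known from cells treated with deacetylase inhibitors. All 18 were listed and 17 were tested, with 0 past the threshold in limma, and 2 higher and 5 lower at an adjusted p under 0.05. *HDAC2* measured 41.7, 39.8 and 43.2 TPM in shEV and 71.6, 72.7 and 70.0 TPM in shPAX2, and rose by 0.77 (limma adjusted p of 1.76e-05). No difference was detected for *HDAC1* or *HDAC3*, the most abundant of the list: *HDAC1* averaged 128 and 136 TPM (limma adjusted p of 0.232), and *HDAC3* 134 and 141 TPM (limma adjusted p of 0.370). *SIRT5* rose by 0.44 (limma adjusted p of 0.0163), *SIRT3* fell by 0.46 (limma adjusted p of 0.00335), *SIRT1* fell by 0.30 (limma adjusted p of 0.00914) and *SIRT2* by 0.19 (limma adjusted p of 0.0473). *HDAC2* and *SIRT5* both lie on chromosome 6, where the median log2 fold change over 638 tested genes was 0.39, against -0.11 on the other chromosomes. The part of that chromosome-wide shift in both values was not tested. The median over the 17 genes was -0.10, equal to that of all tested genes, and it was 0.06 with quantile normalization.

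**Figure D4:**
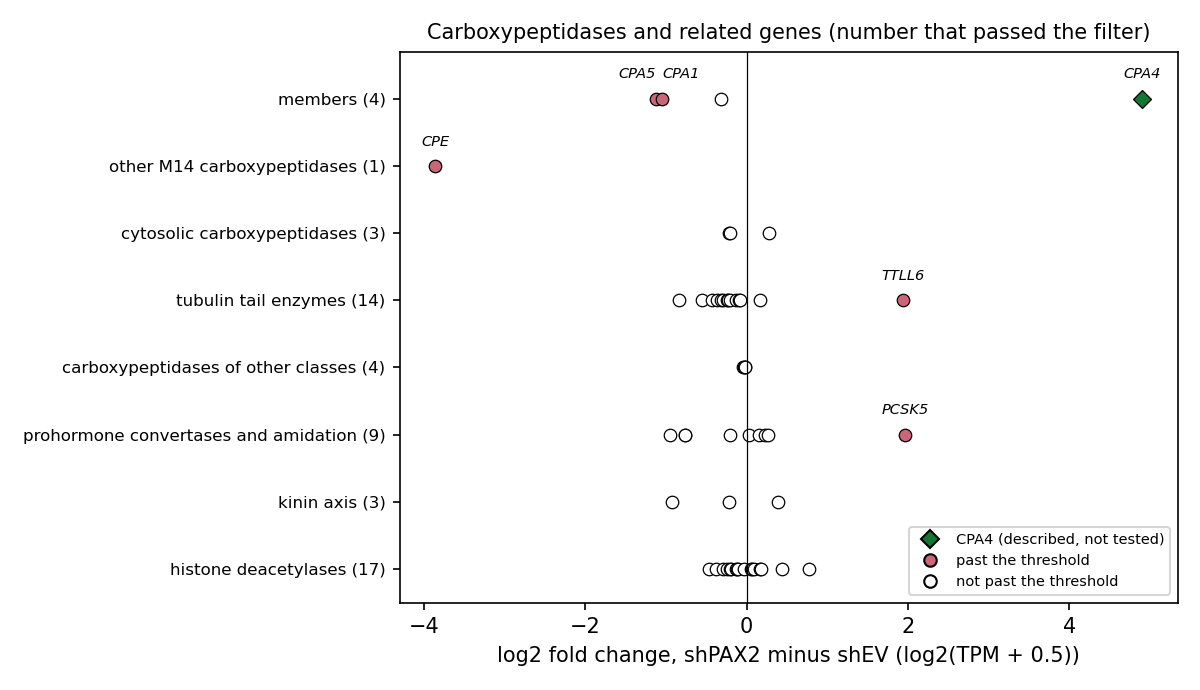
Log2 fold change of each gene that passed the filter, for the members and the carboxypeptidase, tubulin tail, convertase, kinin and deacetylase lists, with the number of genes in brackets, red points for genes past the threshold, open points for the others and a green diamond for *CPA4*, which was not tested. Among these lists and outside the members, *CPE* at -3.86, *TTLL6* at 1.93 and *PCSK5* at 1.96 were the genes past the threshold, and carboxypeptidases of other classes lie on the zero line.

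The genes whose levels followed *CPA4* most closely were found by Pearson's r of log2(TPM + 0.5) over the 6 libraries, among 10145 tested genes with a mean of at least 5 TPM and no small RNA name. The 5 highest were *SMIM13* (r = 0.9990), *NOL7* (r = 0.9990), *ARID5B* (r = 0.9990), *MED1* (r = 0.9986) and *BLOC1S5-TXNDC5* (r = 0.9985). The 5 lowest were *TBC1D9* (r = -0.9993), *TBC1D16* (r = -0.9988), *HIPK2* (r = -0.9985), *SLC6A6* (r = -0.9985) and *VPS13C* (r = -0.9983). These values describe 6 libraries that fall into 2 groups, so a gene that differs between the groups scores high whatever the size of its change, and no p is given.

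What these genes share with *CPA4* is the place of shPAX2 replicate 1 between the controls and the other KD libraries. The ranking by r picks genes for this place, so it is not a separate result. *ARID5B*, which encodes a DNA-binding partner of a histone demethylase, measured 6.64, 6.12 and 6.57 TPM in shEV and 11.2, 13.2 and 13.2 TPM in shPAX2. *TBC1D9* measured 24.7, 25.9 and 25.0 TPM in shEV and 14.4, 12.4 and 12.8 TPM in shPAX2. None of the 10 came near the size of the difference in *CPA4*: their log2 fold changes ran from -1.10 (*HIPK2*) to 0.98 (*BLOC1S5-TXNDC5*). Of the 5 highest, *SMIM13*, *NOL7* and *BLOC1S5-TXNDC5* lie on chromosome 6, whose median difference was given above, and *BLOC1S5-TXNDC5* is a read-through annotation that shares exons with the 2 genes it joins, so its reads are uncertain.

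Of 10 mast cell markers 3 were listed, and the 1 that passed the filter was *GATA2*, at 76.2 ± 7.53 TPM (SD, n = 3) in shEV and 91.4 ± 4.38 TPM (SD, n = 3) in shPAX2. *GATA2* is also made by endometrial cells, while *KIT* reached at most 0.0874 TPM in any library. With *GATA2* included, the mast cell list summed to 69.7 to 84.7 TPM in shEV and 88.6 to 96.5 TPM in shPAX2. All 10 mesenchymal markers were listed and 6 were tested, and they summed to 4980 to 5397 TPM in shEV and 4449 to 4637 TPM in shPAX2, most of it from *VIM*. Among them the collagen genes *COL3A1* and *COL1A2* passed the threshold in opposite directions: *COL3A1* averaged 35.1 TPM in shEV and 242 TPM in shPAX2 (log2 fold change 2.79, limma adjusted p of 0.000122), and *COL1A2* averaged 836 and 390 TPM (log2 fold change -1.11, limma adjusted p of 1.75e-05).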

How the data were processed

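The members and the gene lists were chosen with earlier results of these data known. Total RNA from 3 shEV and 3 shPAX2 samples was made into stranded libraries, per the labels. The authors deposited TPM values per gene symbol. The submitters' processing notes name bcl2fastq, STAR, Subread, featureCounts, edgeR and build hg19 (GRCh37), without versions or roles, and the counting settings are not given in the sources used here. Groups came from the sample titles.

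Whole reads were recovered from the deposited TPM values, since the values of a gene stood in ratios of whole numbers in 100.0% of genes (tolerance 1e-09), and give the depths stated above. They are the smallest whole numbers in those ratios, so the true reads of a gene may be larger by a factor common to its libraries. The read counts, depths and Poisson intervals rest on this, above all for genes with few reads. Genes reaching a TPM of 0.5 in 3 or more libraries entered the test on log2(TPM + 0.5) with limma 3.58.1 in R 4.3.3 (trend and robust, two-sided, no covariate, Benjamini-Hochberg over all tested genes). Fold changes on this scale understate the change of low genes. The recovery and the fit were tested on simulated data. Genes were placed with GENCODE 44 on GRCh37, which held 95.1% of the listed symbols once RefSeq synonyms were used. Named genes were the 9 members, *PAX2*, *CPE*, the 5 highest and 5 lowest correlations with *CPA4*, and up to 5 genes of each list, those past the threshold first and then the most abundant. *CDH1*, *CDH2*, *FN1*, *TWIST1*, *ZEB2*, *VASH1*, *FURIN*, *PCSK4*, *SIRT3*, *SIRT5* and the further 7q32 neighbours were named after their values were seen. Alternatives were pseudocounts of 0.1 and 1, other filters, median-of-ratios scaling, quantile normalization, values without *RPPH1* and *RMRP*, voom on recovered reads, a fit without trend, a replicate block, and each library left out. 1 gene of the lists is not reported here.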

Additional observations from a re-analysis of the deposited data

How the results depend on the processing

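*CPA1*, *CPA5* and *CPD* kept their direction under all 17 alternatives. So did *CPA4*, but it was selected on its difference between these libraries, so its direction is a description only. The other filters, the fit without trend and the replicate block could change the adjusted p of a gene but not its fold change. *CPA1* lost the fold threshold at -0.935 with median-of-ratios scaling and -0.888 with quantile normalization, and ran from -1.14 to -0.980 with 1 library left out. *CPA5* lost it with quantile normalization (-0.890). Past the threshold were 598 genes, 188 higher and 410 lower. The count was 303 with a filter at a TPM of 5, where fewer genes were tested, and 5629 without the fold threshold. It was 799 with voom on recovered reads and 484 to 610 with 1 library left out. The highest of these was without shPAX2 replicate 1, against 500 without shPAX2 replicate 2 and 494 without shPAX2 replicate 3. Scaling shifted the split: 227 higher and 341 lower with median-of-ratios scaling, 240 and 293 with quantile normalization.

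Same-numbered samples did not deviate together across genes (correlations of -0.05, 0.08 and 0.00). This cannot tell whether they were prepared together. With a replicate block 588 genes passed. Depth limits *CPM* and *CPXM1*.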
